A study of Mus musculus with 46 samples.

Results

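Major histocompatibility complex (MHC) class II molecules carry peptides from taken-up proteins to the cell surface for CD4+ T cells. The 7 genes described here are the chains H2-Aa, H2-Ab1 and H2-Eb1, the peptide editors H2-DMa and H2-DMb1, the invariant chain Cd74 and the class II transactivator Ciita. They were found by symbol in each of the 8 deposited gene tables, at 7 of 24537 gene rows per table, and every table held all 7.

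H2-Aa and H2-Ab1 encode the alpha and beta chains of I-A, and H2-Eb1 encodes the beta chain of I-E. Cd74 binds new class II dimers and guides them to endosomes, where the H2-DM dimer helps exchange the remnant of Cd74 for other peptides. Ciita does not bind DNA itself: it joins regulatory factor X, CREB and nuclear factor Y on the conserved X and Y boxes of class II promoters. Dendritic cells, macrophages and B cells express class II steadily, whereas many other cell types gain it under interferon-gamma through Irf1 and Ciita.

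In the deposited tables, H2-Aa (NM_010378) lies at chr17:34282751-34287771 on the minus strand, and H2-Ab1 (NM_207105) at chr17:34263227-34269418, H2-Eb1 (NM_010382) at chr17:34305867-34316674, H2-DMa (NM_010386) at chr17:34122832-34139101 and H2-DMb1 (NM_010387) at chr17:34153191-34160229 on the plus strand (mm10). Cd74 (NM_001042605) lies at chr18:60803849-60812652, and Ciita at chr16:10480072-10527640 (NM_001302619) or, by the shorter transcript of 5 tables, chr16:10489781-10527640 (NM_001243761). Each row is a whole gene, in which exons, introns and UTRs are not told apart.

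The study compared mouse cells with and without Arid1a, a subunit of SWI/SNF complexes that move nucleosomes, by poly(A) RNA sequencing. Its gene tables hold 42 of the series' 46 samples, in 21 groups of 2 libraries. Most came from B16F10, a melanoma line of C57BL/6 mice, with a guide RNA against Arid1a (sgArid1a) or a scrambled guide (sgScramble). Tumors of sgArid1a and of sgScramble cells grew under the skin and were taken on day 15; the cells of the host stay in such RNA. Cultures of sgArid1a and of sgScramble cells carry the label murine IFN gamma for 24 h or PBS. Further cultures were sgArid1a/sgCgas and sgArid1a/sgSting double knockouts (dKO), and sgArid1a cells with an anti-IFNAR antibody against the type I interferon receptor for 72 h, beside untreated sgArid1a and sgScramble cells. sgArid1a cells with the JAK inhibitor ruxolitinib stood beside sgArid1a and sgScramble cells with the solvent DMSO, all for 72 h. sgScramble cells received BD98, a compound given only by its code name, with anti-IFNAR or alone, or DMSO, again for 72 h. Outside melanoma, the groups were sgArid1a and sgScramble MC38 colon cancer cells, and embryonic fibroblasts (MEFs) of Arid1a fl/fl animals on day 5 after tamoxifen (Arid1a -/-) or ethanol. The labels name no guide sequence, clone, mouse count or source of the deleting enzyme, and nothing in them says that the 2 libraries of a group came from separate cultures or animals, so p-values measure the spread between these libraries, which may be technical.

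Promoters are shown because the 7 genes rose together in the tumors below, and because Ciita acts through short promoter boxes. RefSeq's promoter table (GRCm38.p6, the build of the files) has entries for 4 members, H2-Aa, H2-Eb1, H2-DMa and H2-DMb1; H2-Ab1, Cd74 and Ciita had none. The last 120 bases before the annotated start follow for 3 of them, 5′ to 3′ on the gene's strand: chr17:34287824-34287943 (minus strand) for H2-Aa, chr17:34305747-34305866 (plus) for H2-Eb1 and chr17:34153071-34153190 (plus) for H2-DMb1. Capitals mark matches to the X1 core AGCAAC, the broader GNAACT, the X2 core CGTCA and the Y box CCAAT on either strand, so that the Y box on the other strand reads ATTGG.
H2-Aa: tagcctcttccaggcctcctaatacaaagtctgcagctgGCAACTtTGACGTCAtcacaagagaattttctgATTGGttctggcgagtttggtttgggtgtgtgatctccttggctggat
H2-Eb1: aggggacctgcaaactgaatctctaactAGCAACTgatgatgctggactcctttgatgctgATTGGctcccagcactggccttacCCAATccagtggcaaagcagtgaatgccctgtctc
H2-DMb1: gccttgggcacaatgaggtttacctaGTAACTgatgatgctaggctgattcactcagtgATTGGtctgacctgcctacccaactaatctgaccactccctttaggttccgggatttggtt

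All 3 stretches hold GNAACT on the gene's strand followed by ATTGG. The first letter of GNAACT lies at position -81 in H2-Aa, -91 in H2-Eb1 and -94 in H2-DMb1, counted from -1 at the base before the start. ATTGG begins at -48, -59 and -61 in the same order. On the minus strand, the promoter entry of H2-Aa starts upstream of the gene coordinates above, which end at 34287771. The positions given for H2-Aa count from the start of that entry. Among 32536 distinct promoters of the table, 0.541% held GNAACT with 20 to 45 bases between it and ATTGG on the same strand in the 250 bases before the start; this pattern was chosen after the sequences were seen. Alone, GNAACT was found on either strand in 37.2% of them, AGCAAC in 12.2%, CGTCA in 17.9% and CCAAT in 33.8%. AGCAAC overlaps GNAACT by 5 letters in H2-Eb1, and the 2 strands' CGTCA matches of H2-Aa overlap each other. Over these 250 bases the table's start sites of H2-DMa, 2 in number, held a Y box match at -198 before the second and none of the X1 or X2 cores. The interferon motifs TTCNNNGAA, the GAS, found in 7.04% of promoters, and GAAANNGAAA, the ISRE core, found in 2.98%, matched in none of the 4 members' windows. A match describes letters in a window and not a bound site.

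Depth, in units of 1000000 reads by the headers, ran between 8.7 and 38.8 per library, with 31.6 to 38.8 in the tumors and 27.2 to 31.2 in the IFNg table. Except for BD98, whose table holds read counts, the tables hold log2 values that the authors had transformed; below, level means such a value, and a difference of 1 is a doubling on that scale. This transformation draws rows with few reads towards their own mean. Differences in weakly expressed genes, small or large, are thus understated, and levels near 0 are not comparable between genes. Genes with a mean level of at least 4 in a table were tested with limma, and called at a Benjamini-Hochberg adjusted p under 0.05 over all of them. Arid1a was called lower in sgArid1a tumors by 0.32, in untreated sgArid1a cultures by 0.58, in sgArid1a MC38 cells by 0.14 and in tamoxifen-treated MEFs by 0.43, and its differences of -0.26 in sgArid1a DMSO cultures and -0.08 in sgArid1a PBS cultures were not called.

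Labels and values disagreed in the IFNg table. Irf1, a transcription factor that interferon-gamma induces, had levels of 13.04 and 12.97 in libraries labelled sgArid1a + IFNg, 10.13 and 10.07 in those labelled sgScramble + IFNg, 12.53 and 12.34 in those labelled sgArid1a + PBS, and 9.81 and 9.81 in those labelled sgScramble + PBS. Thus Irf1 split the libraries mainly by guide label. Trpm1, a melanocyte channel gene picked after its values were seen because it fell in sgArid1a cells elsewhere, had levels of 11.13 and 11.16, 11.06 and 11.04, 13.41 and 13.38, and 13.25 and 13.28 in the same order of groups. It split them by the IFNg label instead, and fell by 0.90 in sgArid1a tumors, by 2.27 in untreated sgArid1a cultures and by 1.52 in sgArid1a DMSO cultures. Arid1a itself averaged 12.14, 12.05, 12.33 and 12.41 in that order, a called fall under the IFNg label in both guides and no called difference between the guides under either. The labels are kept as deposited, each group of this table is named by its label, and effects of guide and of IFNg within it cannot be told apart. In the double knockouts, Arid1a was called higher than in untreated sgArid1a cells, by 0.47 with sgCgas and by 0.36 with sgSting. Its mean level was 10.88 with sgCgas and 10.77 with sgSting, against 10.41 in untreated sgArid1a and 10.99 in untreated sgScramble cells. The authors' deposited log2 fold changes over sgScramble were -0.11 with sgCgas and -0.25 with sgSting. Both double knockouts and the untreated sgArid1a cells share the sgArid1a label. What the RNA level says about loss of the gene was not tested.

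Every class II gene was called higher in sgArid1a than in sgScramble tumors. On the deposited log2 scale, which draws low values together, the largest difference was that of the chaperone Cd74 and the smallest that of the transactivator Ciita. The differences ran from 0.95 to 2.40 on the log2 scale, 1.93-fold to 5.26-fold, with a median of 1.69. Among all 13895 genes tested in the tumors 26% were called higher, 28.1% lower and 54% in either direction, and the median difference was -0.02.

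The I-A alpha chain H2-Aa had levels of 11.91 and 11.94 in sgArid1a tumors, against 10.08 and 10.05 in sgScramble tumors. Its beta partner H2-Ab1 had 11.48 and 11.56 in sgArid1a tumors, against 10.02 and 10 in sgScramble tumors. The 2 groups of tumors stood far apart in each chain, with libraries of a group within 0.1 of each other. The difference was 1.86 ± 0.06 (SE; adjusted p = 3.1e-10) for H2-Aa and 1.51 ± 0.06 (adjusted p = 2.5e-09) for H2-Ab1. H2-Eb1, the beta chain of I-E, had levels of 11.31 and 11.43 in sgArid1a tumors, against 9.76 and 9.61 in sgScramble tumors, a difference of 1.69 ± 0.07 (adjusted p = 3.8e-09). Its alpha partner in C57BL/6 mice is an inactive gene, and the row H2-Ea-ps, looked at after other values were seen, was listed at 0 in every library of the tumor table.

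The peptide editor chains moved by unequal amounts. H2-DMb1 had levels of 9.75 and 9.81 in sgArid1a tumors, against 7.78 and 7.73 in sgScramble tumors, a difference of 2.03 ± 0.07 (adjusted p = 6.6e-10). H2-DMa had 8.80 and 8.84 in sgArid1a tumors, against 7.57 and 7.39 in sgScramble tumors, a difference of 1.34 ± 0.08 (adjusted p = 7.3e-08). Cd74 had levels of 13.06 and 13.26 in sgArid1a tumors, against 10.90 and 10.63 in sgScramble tumors, and differed by 2.40 ± 0.09 (adjusted p = 9.3e-10). Its libraries were the most spread of the 7, yet the lower sgArid1a tumor was above the higher sgScramble tumor by far more than that spread. Ciita had levels of 7.43 and 7.42 in sgArid1a tumors, against 6.44 and 6.52 in sgScramble tumors, a difference of 0.95 ± 0.07 (adjusted p = 3.9e-07). For Ciita, the authors' deposited table gives a larger log2 fold change of 1.86, and for the other members it gives 1.70 (H2-Ab1) to 2.67 (H2-DMb1), with Cd74 at 2.61, so the order of the 7 genes depends on the scale.

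**Figure D1:**
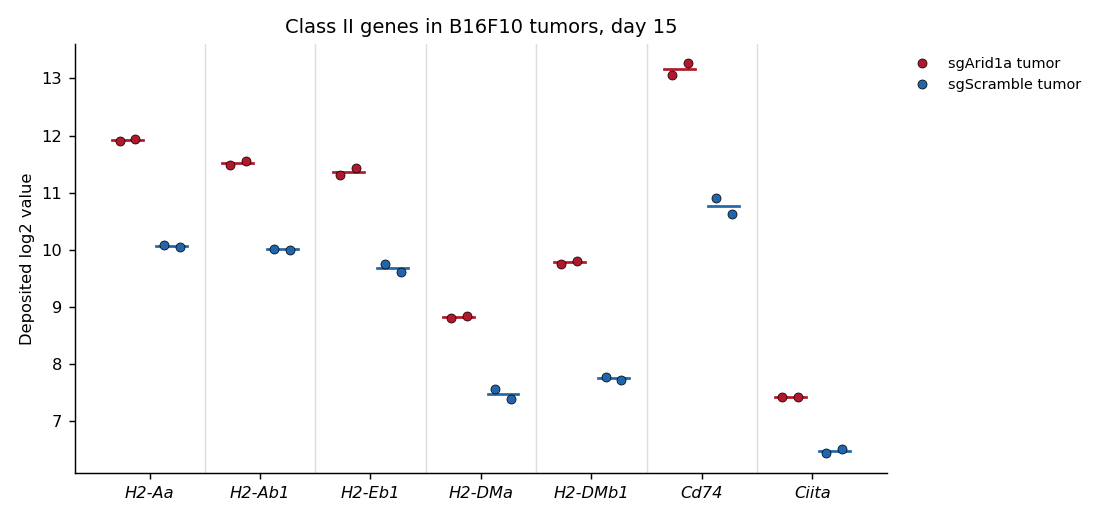
Deposited log2 values of the 7 class II genes in 2 sgArid1a and 2 sgScramble B16F10 tumors of day 15. Each point is a library and each bar the mean of its group; in every gene both sgArid1a points lie above both sgScramble points, by 0.95 between the means for Ciita and by 2.40 for Cd74.

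Divided by transcript length, levels in sgArid1a tumors ordered the genes as Cd74 (12.57 and 12.77, log2 value per kilobase), H2-Aa (11.82 and 11.85), H2-Ab1 (11.24 and 11.31), H2-Eb1 (10.58 and 10.70), H2-DMb1 (9.40 and 9.46), H2-DMa (8.08 and 8.12) and Ciita (4.93 and 4.92). In sgScramble tumors the order of these length-scaled levels was the same, from 10.41 and 10.14 for Cd74 to 3.94 and 4.02 for Ciita. No 2 neighbouring genes overlapped within either group of tumors. The H2-DMb1 level stood above that of its partner H2-DMa by more in sgArid1a than in sgScramble tumors, where the length-scaled levels were 7.43 and 7.38 for H2-DMb1 and 6.85 and 6.67 for H2-DMa; this gap between the genes was not tested.

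Of 7 factors that bind the class II promoter with Ciita, none was called higher and 2 were called lower. These were Nfyc, by 0.27, and Nfyb, by 0.22, both subunits of nuclear factor Y. Of all genes tested in the tumors 28.1% were called lower and 26% higher, so 2 of 7 lower is near the share of all genes. The regulatory factor X subunits Rfx5, Rfxap and Rfxank differed by 0.04, 0.08 and -0.09 and were not called. Among 8 genes of interferon-gamma signalling 5 were called higher, among them Irf1 by 1.0 and the receptor chain Ifngr1 by 0.38. Ifng itself had levels of 1.43 in both sgArid1a tumors and 1.36 and 1.37 in sgScramble tumors, under the test's minimum. In the group of 8 genes for processing and turnover, 6 were called higher and 1 lower. Ctss, the protease that trims the invariant chain, rose by 1.07 ± 0.07 (adjusted p = 7.4e-08), the ubiquitin ligase March1, which removes class II from the surface, rose by 0.70, and the endosomal protease Ctsd fell by 0.34. Costimulatory genes gave 3 higher of 5, with Cd86 up by 0.73, Cd274 (PD-L1) by 0.54 and Cd40 by 0.36. Of 4 further class II chains, only H2-Ob, a subunit of the H2-DM inhibitor, was high enough to be tested, and it rose by 0.33 ± 0.05 (adjusted p = 0.00028).

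Markers of cells that carry class II also differed between the tumors, where 26% of all genes tested were called higher and 28.1% lower. Of 10 macrophage markers 9 were called higher in sgArid1a tumors, with a median difference of 1.17, among them Cx3cr1 by 1.41, C1qa by 1.27 and Csf1r by 1.23, and the log2 of their summed values was 14.37 and 14.43 in sgArid1a tumors, against 13.31 and 13.23 in sgScramble tumors. Dendritic cell markers gave 7 higher of 8 tested (9 in the list; median 0.48), with Wdfy4 up by 0.85, Ccr7 by 0.74 and Itgax by 0.66, and summed log2 values of 9.59 and 9.66 in sgArid1a tumors, against 9.15 and 9.18 in sgScramble tumors. All 3 leukocyte markers rose, with a median of 0.96 and Ptprc (CD45) up by 1.22 ± 0.08. Of B cell markers 2 of 4 were tested, Cd79b up by 0.31 and Cd79a down by 0.12, and their summed log2 value was 5.57 and 5.58 in sgArid1a tumors, against 5.46 and 5.50 in sgScramble tumors. All 3 tested T cell markers rose, with a median of 0.38, and 6 were in the list. Among melanocytic markers 1 of 7 rose and 3 fell, Pmel by 0.98. The summed log2 value of the 7 class II genes was 14.24 and 14.36 in sgArid1a tumors, against 12.40 and 12.26 in sgScramble tumors. Genes of MHC class I, which tumor cells also carry, rose in 9 of 9 cases with a median of 1.62, among them Psmb8 by 2.04, H2-K1 by 1.91 and Nlrc5, the class I counterpart of Ciita, by 1.62. The part of these marker differences in the class II result was not tested; in RNA from whole tumors, more cells with class II and more class II RNA per cell cannot be told apart.

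**Figure D2:**
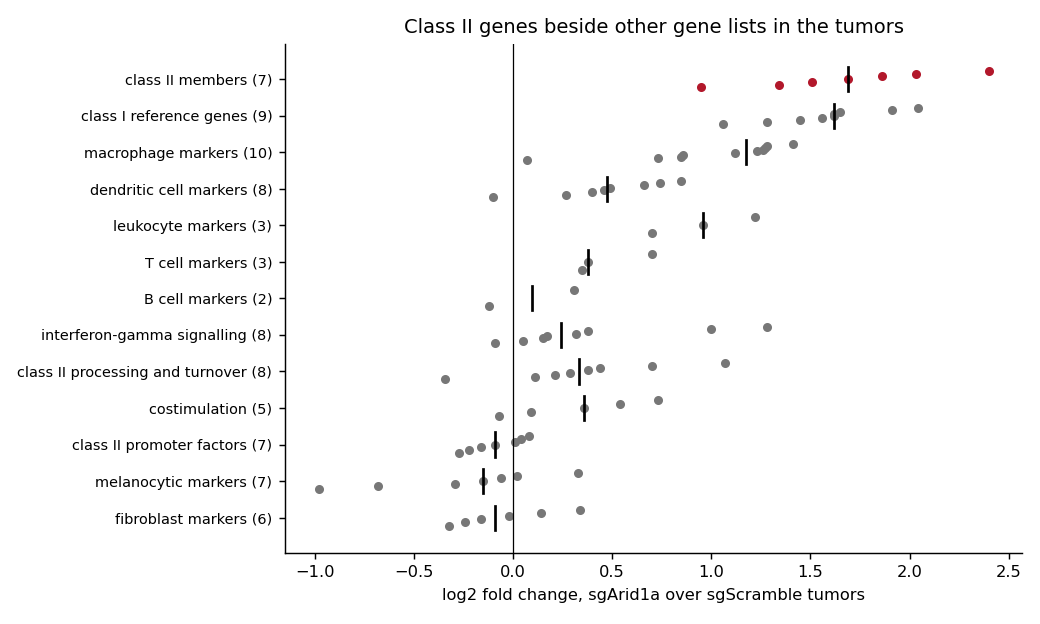
Log2 fold change of each tested gene, sgArid1a over sgScramble tumors, for the class II genes (red) and 12 other gene lists (grey), with the number of genes tested in brackets and a black bar at each median. The class II median of 1.69 lies beside the class I median of 1.62 and above the macrophage median of 1.17 and the dendritic cell median of 0.48.

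In the IFNg culture table, the 7 genes were highest in the libraries labelled sgArid1a + IFNg, intermediate in those labelled sgArid1a + PBS, and lowest, at like levels, in both groups labelled sgScramble. By their labels these cultures hold B16F10 cells alone. The leukocyte marker Ptprc and the macrophage marker Adgre1 were listed at 0 in all 8 libraries, as were 4 of 10 macrophage, 4 of 9 dendritic cell, 4 of 6 T cell and 1 of 4 B cell markers. The summed log2 value of the macrophage list stayed between 6.79 and 6.93 over all 8 libraries.

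Between the guide labels under the IFNg label, 7 of 7 genes were called higher in sgArid1a, with a median difference of 1.18, where 4.03% of 12357 genes tested were called higher, with a median over all of -0.01. Cd74 had levels of 8.25 and 7.91 in libraries labelled sgArid1a + IFNg, against 6.15 and 6.17 in those labelled sgScramble + IFNg, a difference of 1.92 ± 0.10 (adjusted p = 1.5e-10). H2-Ab1 had 7.82 and 7.62 in the libraries labelled sgArid1a + IFNg, against 6.01 and 5.94 in those labelled sgScramble + IFNg, and differed by 1.75 ± 0.06 (adjusted p = 8.7e-13). The groups were separate in both genes, with the sgArid1a libraries more spread than the sgScramble ones. Ciita had levels of 7.02 and 6.78 in libraries labelled sgArid1a + IFNg, against 5.74 and 5.70 in those labelled sgScramble + IFNg, a difference of 1.18 ± 0.07 (adjusted p = 3.8e-10). H2-Eb1 (7.49 and 7.20 in sgArid1a + IFNg, 5.93 and 5.89 in sgScramble + IFNg) differed by 1.43, and H2-DMa (7.37 and 7.23 in sgArid1a + IFNg, 6.17 and 6.13 in sgScramble + IFNg) by 1.15. H2-DMb1 (7.44 and 7.34 in sgArid1a + IFNg, 6.58 and 6.53 in sgScramble + IFNg) differed by 0.83 and H2-Aa (4.88 and 4.71 in sgArid1a + IFNg, 4.32 and 4.32 in sgScramble + IFNg) by 0.48. H2-Aa had the smallest difference of the 7 on this scale. Over the other lists, 9 of 9 class I genes rose with a median of 2.40, Irf1 rose by 2.90 and Cd274 by 1.28, while none of the 7 promoter factors was called in either direction (limma; smallest adjusted p 0.36, for Rfxank).

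Under the PBS label, 6 of the 7 were called higher in sgArid1a libraries than in sgScramble libraries, where 2.37% of all genes tested were. Cd74 had 7.10 and 6.71 in libraries labelled sgArid1a + PBS, against 6.19 and 6.17 in those labelled sgScramble + PBS, a difference of 0.72 ± 0.10 (adjusted p = 0.00013). Ciita had 6.35 and 6.16 in the sgArid1a + PBS libraries, against 5.71 and 5.70 in the sgScramble + PBS libraries, a difference of 0.54 ± 0.07 (adjusted p = 2.7e-05). H2-Ab1, H2-Eb1, H2-DMb1 and H2-DMa differed by 0.48, 0.45, 0.43 and 0.39. H2-Aa, with 4.41 and 4.36 in sgArid1a + PBS libraries and 4.32 and 4.32 in sgScramble + PBS libraries, differed by 0.07 ± 0.04 and was not called (adjusted p = 0.50). The authors' deposited table has all 7 higher for the same groups, with H2-Aa at 6.43 (adjusted p = 0.0002), Ciita at 7.24 (adjusted p = 1.6e-40) and the other members between 1.48 (H2-DMb1) and 4.24 (Cd74).

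Within the sgArid1a label, libraries labelled IFNg were called higher than those labelled PBS in 7 of 7 genes, with a median of 0.73, where 20.9% of all genes tested were called higher. The differences ran from 0.34 ± 0.06 for H2-DMb1 (adjusted p = 0.00011) to 1.27 ± 0.06 for H2-Ab1 (adjusted p = 7.6e-11), with Cd74 at 1.18 and Ciita at 0.65. Within the sgScramble label none of the 7 was called in either direction, where 35% of all genes tested were; their differences lay between -0.06 and 0.01, 0 of 7 had an unadjusted p under 0.05, and the smallest unadjusted p was 0.27 for H2-DMb1. In that comparison Irf1 rose by 0.29, and of 9 class I genes 3 rose and 1, Nlrc5, fell. Little difference between the sgScramble groups could show in weakly expressed members. Their levels are drawn towards a mean that includes the sgArid1a + IFNg libraries, and the minimum level of the test also counted those libraries. H2-Aa was at 4.32 in every sgScramble library, yet the authors' deposited table has sgArid1a + IFNg over sgScramble at 9.52 for this gene.

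The change under the IFNg label was larger with the sgArid1a label than with the sgScramble label in 7 of 7 genes by the interaction term, where 0.696% of all genes tested were called so. By the same term, 5 of 9 class I genes were also called higher, with a median of 0.42. Among the class II genes the interaction term was 1.27 ± 0.09 for H2-Ab1 (limma, adjusted p = 1.3e-06). It was 1.20 ± 0.14 for Cd74 (adjusted p = 0.00013) and 0.98 ± 0.10 for H2-Eb1 (adjusted p = 4.2e-05). H2-DMa gave 0.76, Ciita 0.64 and H2-Aa 0.41, and H2-DMb1 gave 0.40 ± 0.08 (adjusted p = 0.016), with an adjusted p of 0.10 when no filter on low values was applied. The call for H2-DMb1 was also lost, with adjusted p between 0.058 and 0.14, without the first sgArid1a + IFNg library, the second sgArid1a + PBS library, or either sgScramble + PBS library. These differences are on the drawn-in log2 scale, on which a change in sgScramble libraries could stay hidden in weakly expressed members. By edgeR, the authors' deposited table has sgArid1a + IFNg over sgArid1a at 2.63 for H2-Ab1, 2.11 for Cd74, 1.57 for Ciita, 3.05 for H2-Aa and 0.74 for H2-DMb1. The same authors' deposited table has sgScramble + IFNg over sgScramble at -0.13, -0.78, 1.39, 2.33 and -0.33 for those 5 genes, each with an adjusted p of 0.53 or more. Of the members left, H2-Eb1 was at 2.1 with the sgArid1a label and at -1.48 with the sgScramble label (edgeR, adjusted p = 0.087 for the latter). H2-DMa was at 1.68 and -0.27 in the same order. For Ciita and H2-Aa, the authors' deposited table thus has a positive fold change with both guides, and in sgScramble cells its adjusted p is 1 for both genes.

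The gap between guides is wider in that edgeR analysis than on the deposited log2 scale. For sgArid1a + IFNg over sgScramble + IFNg the authors' deposited table has 7.43 for Ciita, 7.19 for H2-Aa, 7.14 for Cd74, 6.74 for H2-Ab1, 6.50 for H2-Eb1, 3.97 for H2-DMa and 2.56 for H2-DMb1. The chains, chaperone and transactivator thus had the largest edgeR folds, and the H2-DM pair the smallest.

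**Figure D3:**
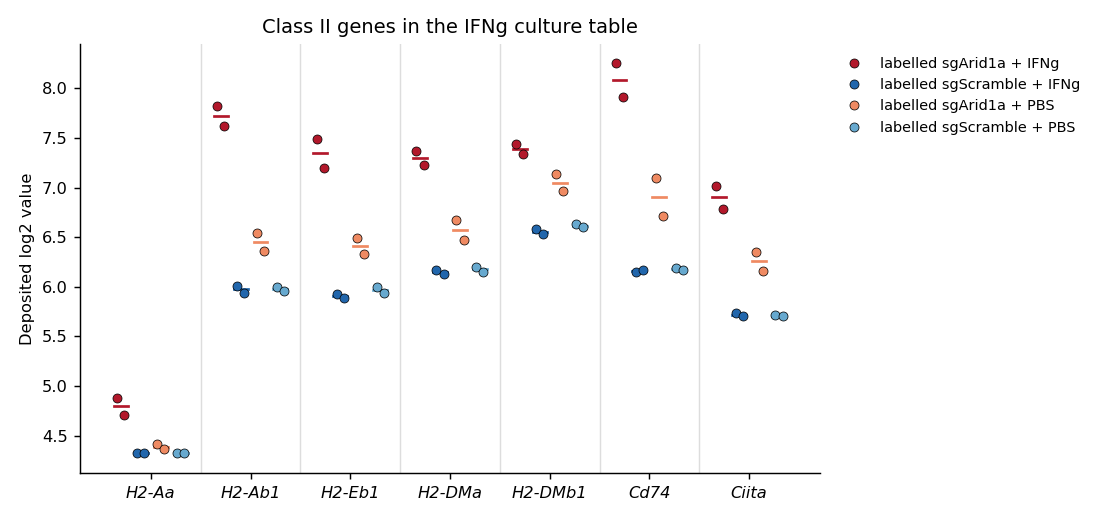
Deposited log2 values of the 7 class II genes in 8 B16F10 cultures, in 4 groups of 2 named by their labels; points are libraries and bars group means. In all genes both libraries labelled sgArid1a + IFNg lie highest, and the groups labelled sgScramble + IFNg and sgScramble + PBS lie together, at 6.15 to 6.19 for Cd74.

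Across the 8 libraries of this table, 5 genes correlated most with the mean level of the 7. These were Ccrl2, a chemokine receptor-like gene (Pearson r = 0.998), Gm12250 (0.997), the non-classical class I gene H2-T23 (0.996), the guanylate-binding protein gene Gbp5 (0.993) and Ifi44 (0.993). Pearson r does not measure size: Gm12250 and H2-T23 spanned 2.10 and 2.03 on the log2 scale. Ccrl2, Gbp5 and Ifi44 spanned only 0.36, 0.34 and 0.27. Of 12350 genes ranked, 70 had an r above 0.95, or 0.567%. These values describe 4 groups of 2 libraries and not 8 independent conditions.

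In other B16F10 cultures few class II genes were high enough to be tested. Levels of weakly expressed genes are drawn towards their own mean within each table, so they do not compare with the sgScramble levels of the IFNg table. Apart from the BD98 table, described further on, H2-DMb1 and in the anti-IFNAR table H2-DMa were high enough to be tested, and the other members were below the minimum. In untreated cultures H2-DMb1 had levels of 4.75 and 4.91 in sgArid1a cells, against 4.62 and 4.62 in sgScramble cells, a difference of 0.21 ± 0.09 that was not called (adjusted p = 0.18, unadjusted 0.044; 11.8% of 11604 genes tested were called in either direction). Of members under the minimum, Ciita had -0.36 and -0.36 in sgArid1a cells and -0.35 and -0.36 in sgScramble cells, and H2-Aa was at -2.09 in all 4 of these libraries. H2-DMa had 4.03 and 3.70 in sgArid1a cells and 3.76 and 3.68 in sgScramble cells, so its groups overlapped. Of 8 tested class I genes 4 rose in that comparison.

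In the double knockouts H2-DMb1 had levels of 4.59 and 4.55 with sgArid1a/sgCgas and 4.68 and 4.66 with sgArid1a/sgSting, against 4.75 and 4.91 in untreated sgArid1a cells. All 4 double knockout libraries lay below both sgArid1a libraries. The differences were -0.26 ± 0.09 with sgCgas (adjusted p = 0.051, unadjusted 0.015) and -0.16 ± 0.09 with sgSting (adjusted p = 0.20, unadjusted 0.11), and neither was called, where 28.7% and 31.8% of genes tested were called in either direction. The first was called, at an adjusted p of 0.043, when only its own 2 groups were fitted or genes down to a mean level of 2 were tested, and the authors' deposited table gives it as -0.87 with an adjusted p of 0.037. Among members under the minimum, the authors' deposited table calls H2-Eb1 higher with sgCgas, at 5.42 (adjusted p = 0.016), and Cd74 higher with sgSting, at 3.04 (adjusted p = 0.014). On the deposited log2 scale H2-Eb1 had 0.58 and 0.63 with sgArid1a/sgCgas, against 0.49 and 0.49 in untreated sgArid1a cells, and Cd74 had 2.38 and 2.08 with sgArid1a/sgSting, against 2.04 and 2.08 in untreated sgArid1a cells. Of 8 class I genes tested, 5 fell with sgCgas and 7 with sgSting. The labels name the line of these double knockouts B16F11 to B16F14 in place of B16F10 in some fields.

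With anti-IFNAR or ruxolitinib in sgArid1a cultures, no class II gene that could be tested was called. Of the class I genes 0 of 9 were called with anti-IFNAR (median -0.09) and 0 of 9 with ruxolitinib (median -0.22). How far these treatments blocked interferon signals was not tested. With anti-IFNAR for 72 h, H2-DMb1 had levels of 4.94 and 5.03, against 4.99 and 5.07 in untreated sgArid1a cells, in a table normalized apart from the one above that repeats the untreated libraries, a difference of -0.04 ± 0.05. H2-DMa had 4.19 and 4.13 with anti-IFNAR and 4.25 and 4.11 in untreated sgArid1a cells, a difference of -0.02 ± 0.05, and in both genes the groups overlapped. Of 11686 genes tested there 0.0171% were called, and neither member was (0 of 2 at an unadjusted p under 0.05 as well). With ruxolitinib H2-DMb1 had 4.08 and 4.14, against 4.08 and 4.14 in sgArid1a DMSO cultures, a difference of 0.00 ± 0.05 (unadjusted p = 1), where 0.221% of 11783 genes tested were called. Between the guides under DMSO it had 4.08 and 4.14 in sgArid1a cells and 4.04 and 4.16 in sgScramble cells, a difference of 0.01 ± 0.05 (adjusted p = 0.89, unadjusted 0.77; 7.88% called in either direction). The other 6 members of that table were at 3.39 or below in every library, and H2-Aa was listed at 0.

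With BD98, 3 class II genes rose in B16F10 cultures, all 3 that had enough reads to be tested. The minimum of reads also counted the libraries with BD98, so a member low with DMSO could pass through them. That all tested members rose is therefore no separate support for a rise of class II as a set. H2-DMb1 had 85 and 71 reads with BD98, against 18 and 9 reads with DMSO, or 6.51 and 5.09 CPM, reads scaled to a library of 1000000, with BD98 and 0.761 and 0.600 CPM with DMSO. By edgeR's quasi-likelihood test it rose by 2.93 ± 0.31 (log2; adjusted p = 1.2e-08), 7.60-fold. H2-Ab1 had 12 and 11 reads with BD98, against 3 and 2 with DMSO, and rose by 2.54 ± 0.71 (adjusted p = 0.0042). H2-DMa had 32 and 36 reads with BD98, against 29 and 6 with DMSO, and 2.45 and 2.58 CPM with BD98, against 1.23 and 0.400 CPM with DMSO, a rise of 1.38 ± 0.41 (adjusted p = 0.0062). The DMSO libraries differed most in H2-DMa: without the second of them the rise was 0.92 (adjusted p = 0.095), and without the first the rise of H2-Ab1 was 2.49 (adjusted p = 0.059). Of 12843 genes tested 24.5% were called higher with BD98 and 49.9% in either direction, and the median was 0.01.

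The other members were at the edge of detection in these 6 libraries. Ciita had 0 and 1 reads with BD98, 3 and 9 with BD98 and anti-IFNAR, and 5 and 1 with DMSO. Whether the 3 called members followed Ciita was not tested. Cd74 had 2 and 7 reads with BD98, against 8 and 1 with DMSO. H2-Aa had 0 reads in all 4 of these libraries, and H2-Eb1 had 0 and 0 with BD98 against 1 and 0 with DMSO. At this depth no difference was detectable in these 4 genes. Class I genes rose in 8 of 9 cases, with Psmb8 up by 4.19, while Nlrc5 differed by -0.26 ± 0.27 and was not called. Irf1 rose by 0.81, and all 7 melanocytic markers fell. The macrophage markers summed to 48 and 47 reads with BD98, against 110 and 81 with DMSO, not scaled for depth, and 5 of 10 had no reads in any library.

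Adding anti-IFNAR to BD98 left the 3 testable members uncalled. H2-DMb1 had 87 and 97 reads with BD98 and anti-IFNAR, against 85 and 71 with BD98 alone, which by CPM was 5.17 and 4.58 with the antibody and 6.51 and 5.09 with BD98 alone. The difference was -0.27 ± 0.23 (adjusted p = 0.71), and it was 0.29 ± 0.47 for H2-Ab1 and -0.41 ± 0.36 for H2-DMa. In CPM the groups overlapped for H2-DMb1 and did not for H2-DMa, which had 1.55 and 2.22 with the antibody and 2.45 and 2.58 with BD98 alone. None of these 3 had an unadjusted p under 0.05 (0 of 3), where 1.49% of all genes tested were called in either direction. In the same libraries 7 of 9 class I genes fell, with a median of -0.71 and H2-K1 down by 0.71. That class II responded otherwise than class I was not tested. Over DMSO, the authors' deposited table has BD98 with anti-IFNAR at 2.66 for H2-DMb1 (adjusted p = 8.1e-19), 2.84 for H2-Ab1 (adjusted p = 3.4e-05) and 0.97 for H2-DMa (adjusted p = 0.012).

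**Figure D4:**
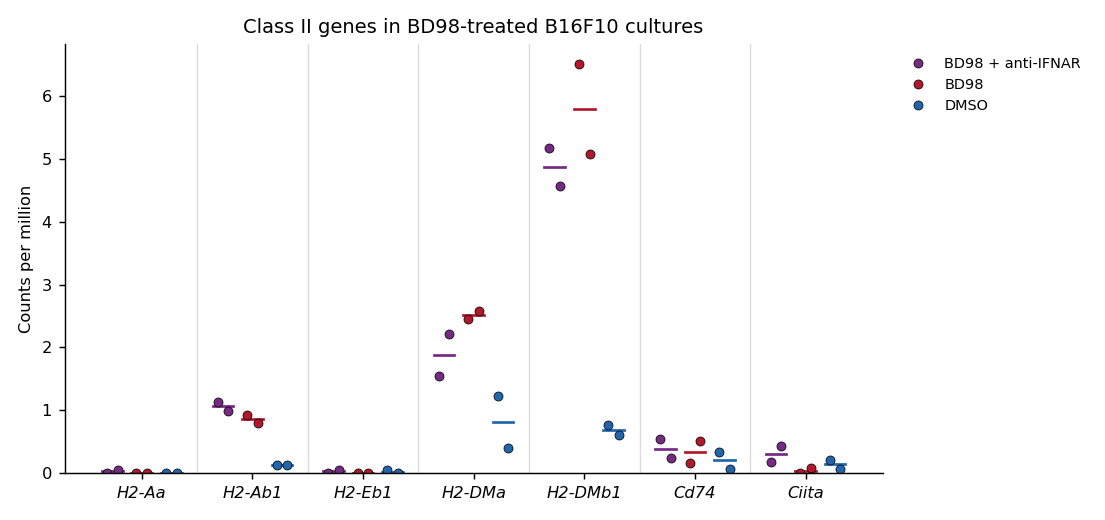
CPM of the 7 class II genes in B16F10 cultures with BD98 and anti-IFNAR, BD98 alone or DMSO for 72 h; points are libraries and bars group means. H2-DMb1 lies at 4.58 to 5.17 with BD98 and anti-IFNAR and at 5.09 to 6.51 with BD98, above 0.761 and 0.600 with DMSO, while H2-Aa, H2-Eb1, Cd74 and Ciita stay near 0.

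In MC38 cells 3 members were tested and all 3 were called higher in sgArid1a than in sgScramble cells, by small amounts, where 8.33% of 11516 genes tested were called higher. H2-DMa had levels of 5.74 and 5.76 in sgArid1a cells, against 5.63 and 5.64 in sgScramble cells, a difference of 0.11 ± 0.01 (adjusted p = 4.1e-07). H2-DMb1 had 6.68 and 6.64 in sgArid1a cells, against 6.59 and 6.57 in sgScramble cells, a difference of 0.08 ± 0.02 (adjusted p = 0.0031), and H2-Eb1 had 4.40 and 4.40 in sgArid1a cells, against 4.37 and 4.38 in sgScramble cells, a difference of 0.03 ± 0.01 (adjusted p = 0.040). Without the first sgArid1a library, or with no trend in the spread, H2-DMa was the 1 gene called. H2-Eb1 was not called without the first sgArid1a library (adjusted p = 0.16), the second sgArid1a library (adjusted p = 0.13) or the first sgScramble library (adjusted p = 0.24), nor with no filter on low values (adjusted p = 0.12). The authors' deposited table also calls H2-DMa, at 1.71 (adjusted p = 0.00024), and neither H2-DMb1 (0.64, adjusted p = 0.17) nor H2-Eb1 (0.91, adjusted p = 0.54). In the same cells 8 of 9 class I genes rose, with a median of 0.20.

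In MEFs H2-DMa was the only member at the minimum. It had levels of 4.36 and 4.31 after tamoxifen, against 4.29 and 4.29 after ethanol, a difference of 0.05 ± 0.02 that was not called (adjusted p = 0.24, unadjusted 0.066; 9.71% of 12184 genes tested were called in either direction). H2-DMb1 had 3.45 and 3.46 after tamoxifen, against 3.41 and 3.41 after ethanol, and Ciita was at -1.73 and -1.72 after tamoxifen and -1.73 and -1.72 after ethanol.

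**Figure D5:**
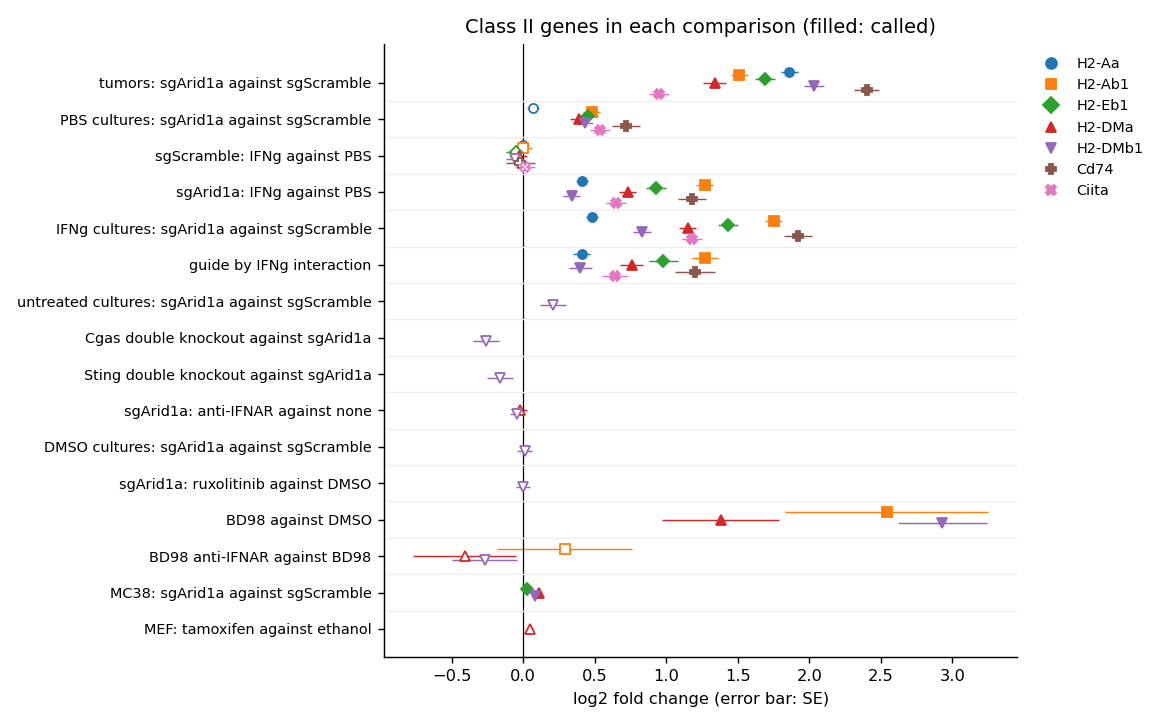
Log2 fold change (points) with its standard error (bars) of each tested class II gene in the 16 comparisons, the group named first over the group named second; filled symbols were called. The tumors and the IFNg-labelled guides give 7 called genes each, BD98 over DMSO gives 3 with wide errors, and the double knockout, anti-IFNAR, ruxolitinib and MEF comparisons give open symbols.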

How the data were processed

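Poly(A) RNA libraries made with a stranded kit were sequenced, per the labels' protocols; STAR 2.5.3a, HOMER, edgeR and DESeq2 with GRCm38 (mm10) are named in the submitters' processing notes. In 7 tables the authors deposited log2 values, whose negative values and narrow spread at low levels resemble a regularized logarithm, and in the BD98 table read counts. Beside them stand the authors' deposited log2 fold changes and adjusted p-values. They were made with edgeR per the file headers of the IFNg, double knockout, anti-IFNAR, ruxolitinib and BD98 tables. The headers of the tumor, MC38 and MEF tables name no test, but their deposited names give DESeq2 for tumors and MEFs and edgeR for MC38. Depth is the read total per the file headers. A further 10 value columns, which no sample of the series names, and 4 total RNA samples were not used here. Log2 values were fitted per table over all its groups with limma 3.58.1 (trend), for genes with a mean of at least 4; counts were fitted with edgeR 4.0.16 (TMM, filterByExpr, quasi-likelihood), with DESeq2 1.42.0 as an alternative, in R 4.3.3. Genes were called at a Benjamini-Hochberg adjusted p under 0.05 over all genes tested. Both fits were tested on simulated data. All 7 members are described in every comparison; of other lists, counts and up to 3 called genes with the smallest p. Some results under this rule are not reported here. Members, lists and motifs were chosen with earlier results of these data known. Where few reads cover a gene, precision is limited by counting.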

Additional observations from a re-analysis of the deposited data

Results flagged for a closer look

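In the IFNg culture table, the change between the IFNg and PBS labels differed between the guides in all 7 class II genes by the interaction term (limma, adjusted p under 0.05), with the larger change under the sgArid1a label. The difference, sgArid1a minus sgScramble on the log2 scale, was 0.41 for H2-Aa, 1.27 for H2-Ab1, 0.98 for H2-Eb1, 0.76 for H2-DMa, 0.40 for H2-DMb1, 1.20 for Cd74 and 0.64 for Ciita. By the same term, 5 of 9 class I genes were also called higher, with a median of 0.42, where 0.696% of all genes tested were. Irf1, Trpm1 and Arid1a go against the labels of these libraries, and their part in these differences was not tested. On this scale a change in sgScramble libraries could stay hidden in weakly expressed members, H2-Aa and Ciita among them. Groups of 2 libraries are too small for a search for outlying samples.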

How the results depend on the processing

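Of 160 recounts of called members under other settings 154 stayed within 1.5 times the reported count, and of 606 refitted differences 578 kept their direction and their side of the threshold. For the Cgas double knockout the count was 1 in place of 0 with a mean level of at least 2 (H2-DMb1, lower), with no filter (H2-Eb1, higher by 0.11) and with only its own groups fitted (H2-DMb1, lower); for the Sting double knockout it was 1 with no filter (H2-Ab1, lower by 0.07). In MC38 cells it was 1 without a trend, and between 1 and 3 with a library left out. Differences that changed sign were all uncalled. With median-centred libraries H2-Ab1 within the sgScramble label became 0.01 and H2-DMb1 with ruxolitinib 0.02. With a library left out, H2-Ab1 within the sgScramble label ranged from -0.04 to 0.03 and Ciita there from -0.01 to 0.03, H2-DMa with anti-IFNAR from -0.09 to 0.05, H2-DMb1 between the guides under DMSO from -0.05 to 0.08, and H2-DMb1 with ruxolitinib from -0.03 to 0.03. Leaving out a library of an arm leaves 1, assumed to vary like the others. Same-numbered libraries did not deviate together throughout: the correlation of deviations ran from -0.51 (tumors) to 0.69 (MEFs), so the numbers were not taken to pair samples. With the replicate number as a block, 7 members were called in tumors, and no count of called members changed in any comparison where the block could be fitted; the libraries of the Sting double knockout carry no number. With crossed numbers in the tumors, added after that correlation was seen, 7 members and 9670 of 13895 genes were called, against 7509 without a block. The cause of these changes was not tested. Counts of a few reads limit what BD98 could show in 4 members.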
